A study of Mus musculus with 3 samples.

Results

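The let-7 and miR-98 family comprised 9 of the 1881 mouse miRNAs on the array, listed by name. They are mmu-let-7a-5p, mmu-let-7b-5p, mmu-let-7c-5p, mmu-let-7d-5p, mmu-let-7e-5p, mmu-let-7f-5p, mmu-let-7g-5p, mmu-let-7i-5p and mmu-miR-98-5p, written below without the species prefix. The members were chosen with earlier results of these data known, so their counts and offsets beside all miRNAs are a description only. The samples were serum of male C57BL/6NJcl mice aged 8 weeks, with no other treatment named in the labels. RNA was extracted from 200 µL of serum in 3 ways, with 1 array each. The miRNeasy serum/plasma advanced kit and the mirVana PARIS kit were each used by their own protocol. In the exoRNeasy midi kit arm, 700 µL of QIAzol lysis reagent was added to the serum and RNA was taken from the aqueous layer, so that arm is labelled as a measure of total serum RNA and not of vesicles alone. All 3 samples were labelled with Cy3 from 1.8 ng of RNA and hybridised on 1 slide. Neither the number of mice nor whether 1 serum pool served all 3 extractions is given in the labels. With 1 array for each kit, the kit, the serum aliquot and the array cannot be told apart, no test between kits was possible, and every error below is the spread between replicate spots of a probe within an array.

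MicroRNAs are short RNAs that guide Argonaute proteins to messenger RNAs, mainly through pairing of the seed near their 5′ end. The let-7 family is among the most conserved in animals: it accumulates as cells differentiate, it represses targets such as Lin28, Hmga2 and Ras family genes, and LIN28 in turn blocks the maturation of its precursors. In serum, miRNAs travel in vesicles, in complexes with Argonaute 2 and on lipoproteins, and blood cells and the liver are among their known sources.

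The mature sequences are shown because the members differ at few bases, and because let-7g and let-7i, which stand apart in several ratios below, share 2 of those differences. They were taken from RefSeq for build GRCm38.p6, where 9 of 9 members matched by name, and are written 5′ to 3′ with the seed, bases 2 to 8, in capitals.
let-7a-5p: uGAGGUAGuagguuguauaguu
let-7b-5p: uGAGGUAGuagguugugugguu
let-7c-5p: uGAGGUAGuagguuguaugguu
let-7d-5p: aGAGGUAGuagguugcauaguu
let-7e-5p: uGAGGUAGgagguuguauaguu
let-7f-5p: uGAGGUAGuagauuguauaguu
let-7g-5p: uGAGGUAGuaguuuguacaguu
let-7i-5p: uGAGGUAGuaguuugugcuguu
miR-98-5p: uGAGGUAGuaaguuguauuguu
All 9 share the seed GAGGUAG and are 22 bases long. Counted from 1 at the 5′ end and written with the let-7a base first, let-7c differs from let-7a by A19G, let-7e by U9G and let-7f by G12A. Further, let-7b differs by A17G and A19G, let-7d by U1A and U16C, and miR-98 by G11A and A19U. The last pair share G12U and U18C, which no other member carries: let-7g differs from let-7a by these 2 alone, and let-7i also by A17G and A19U. The share of G and C bases ran from 31.8% in let-7f and miR-98 to 45.5% in let-7b. Of the mature sequences matched for 1608 of the 1881 array miRNAs, the other two with this seed, let-7k and miR-1961, were detected on 0 arrays.

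The genes of the members lie at scattered loci, some in clusters. On GRCm38.p6 chromosome 13, minus strand, the mature 5p arms lie at chr13:48538239-48538260 for Mirlet7a-1, chr13:48537889-48537910 for Mirlet7f-1 and chr13:48536078-48536099 for Mirlet7d. The starts in that cluster are 350 bases apart for Mirlet7a-1 and Mirlet7f-1 and 1811 bases apart for Mirlet7f-1 and Mirlet7d. On the plus strand of chromosome 15, Mirlet7c-2 (chr15:85706616-85706637) and Mirlet7b (chr15:85707325-85707346) start 709 bases apart within the long non-coding RNA gene Lncppara. On the plus strand of chromosome X, Mirlet7f-2 (chrX:151912353-151912374) and Mir98 (chrX:151913229-151913250) start 876 bases apart within Huwe1. Mirlet7c-1 lies at chr16:77599672-77599693 and Mirlet7e at chr17:17830366-17830387 within Spaca6, both on the plus strand. The genes of the pair that shares G12U and U18C lie apart, Mirlet7g at chr9:106178846-106178867 on the plus strand within Wdr82 and Mirlet7i at chr10:122985698-122985719 on the minus strand. Mature let-7a, let-7c and let-7f come from more than 1 gene, so their array levels cannot be assigned to a locus.

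A miRNA was called detected where over 0.5 of its probe's spots were well above background, which held for 83 miRNAs with exoRNeasy, 71 with miRNeasy advanced and 134 with mirVana PARIS. The lowest detected signals were 21.6, 12.2 and 8.81 in that order, and 0 spots were saturated. All 10 marker miRNAs listed for red blood cells, platelets and myeloid cells, liver and muscle were detected on all 3 arrays, beside 67 of all 1881 miRNAs. Those lists were chosen with earlier results of these data known, so this count is a description only. The arrays differed in overall brightness: the 75th percentile of the probes detected on all 3 was 7.05, 6.21 and 8.02 on the log2 scale. Ratios between arrays are therefore given after subtracting that percentile from each array, as scaled log2 ratios, and the unscaled signals are given beside them. The spike-in RNAs added at labelling differed by -0.25 ± 0.18 (log2, SD over 4 probes) for exoRNeasy minus mirVana PARIS and by -0.13 ± 0.12 for miRNeasy advanced minus mirVana PARIS. The spike-in RNAs added at hybridisation were brighter on the exoRNeasy array than on the mirVana PARIS array, by 0.41 ± 0.11, and than on the miRNeasy advanced array, by 0.42 ± 0.06.

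The 7 members let-7a, let-7b, let-7c, let-7d, let-7f, let-7g and let-7i were detected on all 3 arrays. In the sentences on signal, each value is the unscaled processed signal of the probe used, averaged on the log2 scale over 12 to 15 spots, with the SD between spots. Probes differ in affinity, so the order of signals is not an order of abundance. The signal of let-7a-5p was 91.7 ± 5.90 with exoRNeasy, 33.6 ± 3.14 with miRNeasy advanced and 55.8 ± 4.28 with mirVana PARIS. Its spots did not overlap between arrays: the exoRNeasy array was highest and the miRNeasy advanced array lowest. For let-7b-5p, whose gene neighbours a let-7c gene, the signals in the same order were 89.3 ± 5.27, 38.3 ± 3.44 and 52.0 ± 5.07. The exoRNeasy spots of let-7b lay above all others, while its mirVana PARIS spots (40.4 to 58.9) overlapped its miRNeasy advanced spots (32.0 to 43.7). For let-7c-5p, 1 base from let-7a, the signals were 131.8 ± 12.3, 56.6 ± 4.72 and 66.0 ± 8.39, with the same overlap between the lower pair of arrays.

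Next come let-7d and let-7f, which share the chromosome 13 cluster with let-7a. For let-7d-5p, the member whose first base is A, the signals were 42.5 ± 4.42, 13.1 ± 2.80 and 37.5 ± 4.21. Its exoRNeasy and mirVana PARIS spots overlapped, and on the miRNeasy advanced array only 9 of its 15 spots were well above background. For let-7f-5p the signals were 75.3 ± 6.28, 24.8 ± 4.12 and 52.5 ± 5.22, with overlap between exoRNeasy spots (60.9 to 83.6) and mirVana PARIS spots (46.3 to 66.7).

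For let-7g and let-7i, the pair that shares G12U and U18C, the order of arrays was another. For let-7g-5p the signals were 127.5 ± 3.79, 70.3 ± 6.57 and 166.1 ± 13.5, and for let-7i-5p they were 132.2 ± 8.98, 75.4 ± 6.95 and 184.1 ± 19.0. The mirVana PARIS array was highest for both, with spots from 146.4 upward for let-7g and from 160.3 upward for let-7i, above every exoRNeasy spot of the same member. The miRNeasy advanced array was lowest for all 7 detected members, and it was also the dimmer array for most miRNAs. Unscaled, 97.2% of 71 miRNAs were dimmer there than with mirVana PARIS, and 94% of 67 were brighter with exoRNeasy than there.

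The other two members, let-7e-5p and miR-98-5p, were not well above background on any array. Over their probes, 0 of 90 let-7e spots and 0 of 89 miR-98 spots passed. The brightest let-7e spot was 3.43, on the miRNeasy advanced array, which was 10.2% of the let-7a signal there. The brightest miR-98 spot was 6.09, on the same array, at 18.1% of the let-7a signal. These are single spots on the array where let-7a was dimmest. Negative control spots there averaged 4.88 with an SD of 2.65, and the median spot of each let-7e and miR-98 probe was negative. On the exoRNeasy and mirVana PARIS arrays the brightest spots were at 2.51% and 4.81% of let-7a for let-7e, and 0.035% and 7.70% for miR-98. Mir98 lies beside Mirlet7f-2, and mature let-7f, which Mirlet7f-1 also encodes, was detected on all 3 arrays.

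**Figure D1:**
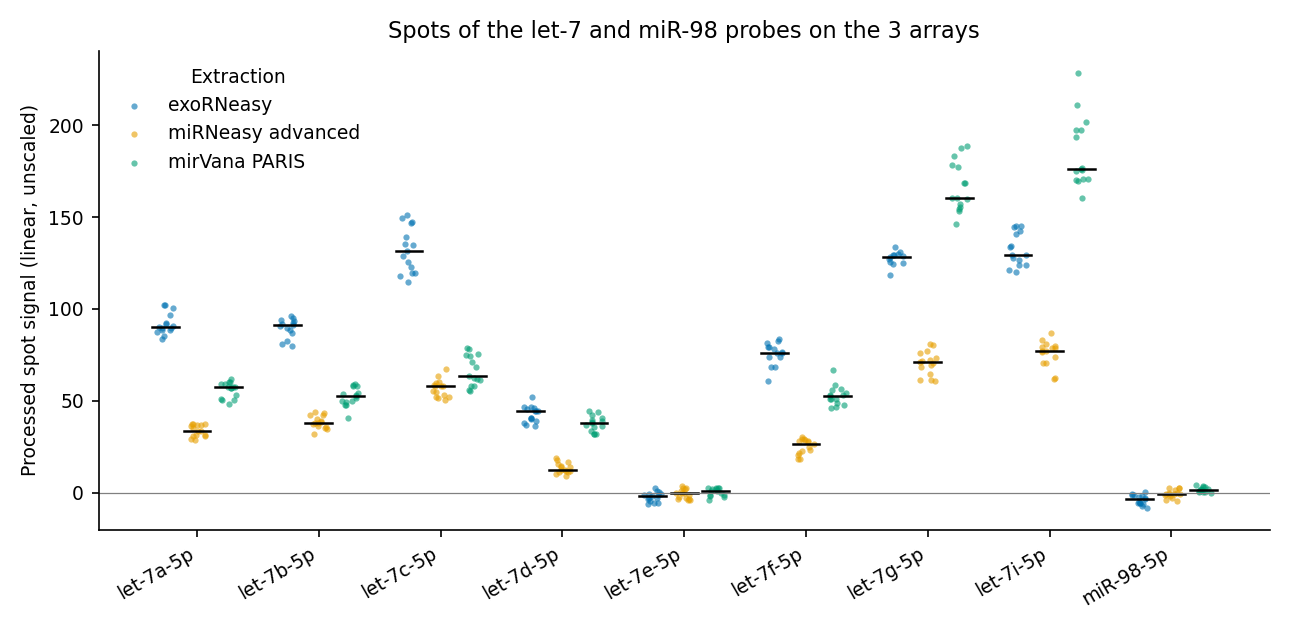
Processed signal of each replicate spot (points, linear and unscaled) of the probe used for the 9 members, by extraction, with the median of the spots as a black bar. The exoRNeasy spots stand highest for let-7a, let-7b and let-7c, the mirVana PARIS spots stand highest for let-7g and let-7i, and let-7e and miR-98 lie at the bottom of the axis on all 3 arrays.

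Among the 7 detected members, let-7i had the highest scaled level on each array and let-7d the lowest. On the exoRNeasy array, let-7i (0.00), let-7c (0.00) and let-7g (-0.05) did not differ beyond the combined SD of their spots, nor did let-7a (-0.53) and let-7b (-0.56), followed by let-7f (-0.81) and let-7d (-1.64). On the miRNeasy advanced array, let-7i (0.03) and let-7g (-0.08) did not differ beyond that spread, and let-7c (-0.39), let-7b (-0.95), let-7a (-1.14), let-7f (-1.58) and let-7d (-2.49) followed. On the mirVana PARIS array, let-7i (-0.49) and let-7g (-0.64) again stood together, with let-7c (-1.97) well below them. There, let-7a (-2.21) and let-7f (-2.30), and let-7f and let-7b (-2.32), did not differ beyond their spread, and let-7d (-2.79) was last. For let-7a, let-7b, let-7c and let-7f, the distance from the top pair was thus widest on the mirVana PARIS array. For let-7f it exceeded the miRNeasy advanced distance by 0.16 from let-7g and 0.20 from let-7i, within 3 standard errors. For let-7d it was wider on the miRNeasy advanced array, by 0.27 from let-7g and 0.22 from let-7i, also within 3 standard errors.

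Signal ratios between probes of the same array show the widening on the mirVana PARIS array for let-7a and let-7c without any scaling. The let-7i signal was 1.44 times that of let-7a with exoRNeasy, 2.25 times with miRNeasy advanced and 3.30 times with mirVana PARIS. Against let-7c, let-7i was at 1.0, 1.33 and 2.79 times. By contrast, let-7g was at 0.964, 0.932 and 0.902 times let-7i, and let-7b was at 0.678, 0.676 and 0.787 times let-7c, so within those pairs the proportions moved far less between arrays.

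Between the exoRNeasy and mirVana PARIS arrays, let-7a, let-7b, let-7c, let-7d and let-7f were at least 2-fold higher after scaling, and let-7g and let-7i were not. These 5 of 7 members compare with 25% of the 80 miRNAs detected on both arrays, of which 2.5% were at least 2-fold lower. The scaled log2 ratios were 1.97 ± 0.06 (SE between spots) for let-7c, 1.75 ± 0.04 for let-7b, 1.69 ± 0.04 for let-7a, 1.49 ± 0.05 for let-7f and 1.15 ± 0.06 for let-7d. For let-7g the ratio was 0.59 ± 0.03 and for let-7i 0.49 ± 0.04. All 7 lay above the median ratio of the 80 miRNAs, 0.33, as 50% of all miRNAs do by construction, and the members' median exceeded it by 1.16, a 2.24-fold offset. That offset does not move with a single scaling factor for each array, but it was 0.60 with the normexp background correction. Under normexp let-7i (0.39) lay below the median of all (0.43) and 6 of 7 members lay above. The normexp setting also adds 50 to every spot, which by itself draws unscaled log2 ratios of signals this low toward 0.

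The direction of the unscaled signals in this pair divided the family. Unscaled, 5 of 7 members were brighter on the exoRNeasy array, against 26.2% of all 80, and 2 were dimmer, against 73.8%. At least 2-fold brighter or dimmer without scaling were 0 of 7 in either direction, against 6.25% and 27.5% of all. The unscaled log2 differences ran from 0.18 in let-7d to 0.997 in let-7c, a value just under the 2-fold line, while let-7g and let-7i stood at -0.38 and -0.48. The 2-fold counts after scaling therefore rest on the scaling: with the labelling spike-ins as reference 2 members passed, and with the percentile over all probes 0 passed.

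In the ratio of miRNeasy advanced over mirVana PARIS, 3 of 7 members, let-7a, let-7b and let-7c, were at least 2-fold higher after scaling, against 14.1% of the 71 miRNAs detected on both, and 0 were 2-fold lower, against 2.82%. The scaled log2 ratios were 1.58 ± 0.06 for let-7c, 1.36 ± 0.05 for let-7b and 1.07 ± 0.05 for let-7a. The rest lay between 0.29 ± 0.09 in let-7d and 0.72 ± 0.07 in let-7f, with let-7g at 0.56 ± 0.05 and let-7i at 0.52 ± 0.05. All 7 were above the median of all, 0.18 (49.3% of all), with the members' median 0.54 higher. Unscaled, all 7 were dimmer on the miRNeasy advanced array, as were 97.2% of the 71 (2.82% were brighter), and 4 were at least 2-fold dimmer against 80.3%. The value of let-7d was the least certain, since its miRNeasy advanced signal of 13.1 lay near the lowest detected signal of 12.2, and it was 0.83 with normexp.

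Between the exoRNeasy and miRNeasy advanced arrays, 0 of 7 members were 2-fold apart after scaling, against 2.99% of 67 miRNAs higher and 1.49% lower. The scaled log2 ratios were 0.86 ± 0.09 for let-7d, 0.77 ± 0.07 for let-7f, 0.62 ± 0.04 for let-7a, 0.39 ± 0.04 for let-7b and 0.38 ± 0.05 for let-7c. For let-7g (0.02 ± 0.04) and let-7i (-0.02 ± 0.04) the ratio was within 3 standard errors of 0. The members' median was 0.26 above that of all miRNAs, 0.12, with 5 of 7 above it against 49.3% of all, and this offset was 0.11 with normexp. The let-7d ratio was 0.0096 with normexp and 0.09 without background correction. The place of let-7d at the top of this order thus depends on how background is treated, including the 50 that normexp adds. Unscaled, all 7 members were brighter on the exoRNeasy array, as were 94% of all 67 (5.97% were dimmer), and 5 were at least 2-fold brighter, against 43.3%. Each array enters more than 1 of these 3 pairs, so the pairs are not independent of each other.

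**Figure D2:**
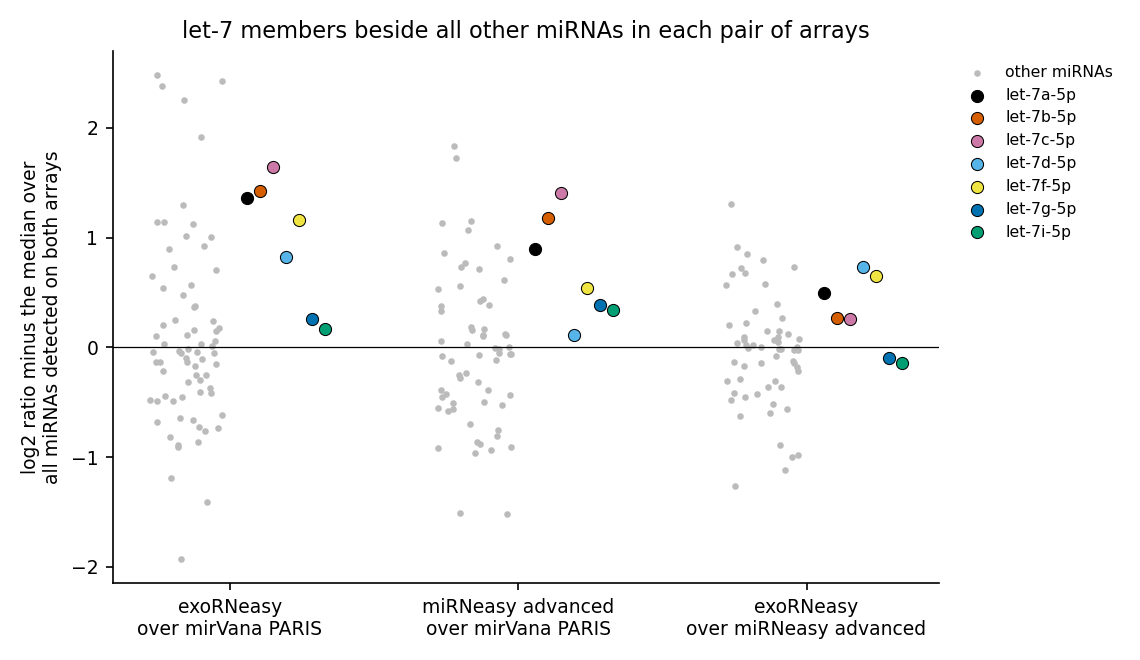
Scaled log2 ratio of each miRNA minus the median over all miRNAs detected on both arrays (vertical axis), for the 3 pairs of arrays, with other miRNAs as grey points and the 7 detected members as coloured points. In the exoRNeasy over mirVana PARIS pair the members run from 0.17 in let-7i to 1.64 in let-7c, with let-7g and let-7i lowest.

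The spread among the members was large beside the spot error but smaller than that over all miRNAs. In exoRNeasy over mirVana PARIS, miRNeasy advanced over mirVana PARIS and exoRNeasy over miRNeasy advanced, the SD was 0.58, 0.48 and 0.34 among members. Over all miRNAs detected on both arrays it was 0.88, 0.70 and 0.51. The counts of pairs below were not made for all miRNAs, so they do not set the family apart. Of the 21 pairs of members, 18 differed by more than 3 standard errors in their exoRNeasy over mirVana PARIS ratio, 15 in the miRNeasy advanced over mirVana PARIS ratio and 16 in the exoRNeasy over miRNeasy advanced ratio. At least 2-fold differences were found for 6, 4 and 0 pairs. In the exoRNeasy over mirVana PARIS pair, all 6 set let-7a, let-7b or let-7c against let-7g or let-7i, with the widest gap, 1.47 ± 0.07, between let-7c and let-7i. In the same pair of arrays the gap between let-7g and let-7i was 0.10 ± 0.06, within 3 standard errors. These differences of ratios are free of any single scaling factor, but not of the background correction or of the 50 that normexp adds. With normexp 0 pairs of members were 2-fold apart in any pair of arrays, and the gap between let-7c and let-7i was 0.95. Without background correction the counts were 1, 0 and 0, and with quantile normalisation 3, 2 and 0. No array was repeated, so the spread of a member between repeat extractions is unknown.

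In 2 of the 3 pairs of arrays let-7g and let-7i lay below the other 5 detected members, a pattern noticed after the values were seen and therefore given without a test. In the exoRNeasy over mirVana PARIS pair, the lowest of let-7a, let-7b, let-7c, let-7d and let-7f exceeded the higher of let-7g and let-7i by 0.56. In the exoRNeasy over miRNeasy advanced pair the gap was 0.36. In the miRNeasy advanced over mirVana PARIS pair it was -0.27, because let-7d lay below let-7g and let-7i, and it was -0.58 with quantile normalisation, 0.35 with normexp and 0.33 without background correction. Over the settings run, the exoRNeasy over mirVana PARIS gap ranged from 0.064 with quantile normalisation to 0.71 with the mean over detected probes, and the exoRNeasy over miRNeasy advanced gap was 0.012 with normexp. Since let-7g and let-7i share both G12U and U18C, these positions cannot be told apart from each other or from the loci.

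The same scaled levels can be restated as a distance between profiles over the 3 arrays, so the distances add no separate evidence to the ratios. A distance of 0 means identical scaled profiles once each member's mean is removed. The closest pair was let-7g and let-7i at 0.068, followed by let-7b and let-7c at 0.18, let-7a and let-7b at 0.22 and let-7a and let-7f at 0.25. The most distant of the 21 pairs was let-7c and let-7i at 1.08, which differ at 4 bases. Pairs 1 base apart lay among the closer ones: let-7b and let-7c at 0.18, let-7a and let-7f at 0.25 and let-7a and let-7c at 0.36. The number of mismatches did not give the full order. Pairs 2 bases apart ran from 0.068 for let-7g and let-7i to 0.78 for let-7a and let-7g. At 3 bases, let-7d and let-7f stood at 0.32. Probes for sequences 1 or 2 bases apart may bind each other's targets, and this was not tested.

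**Figure D3:**
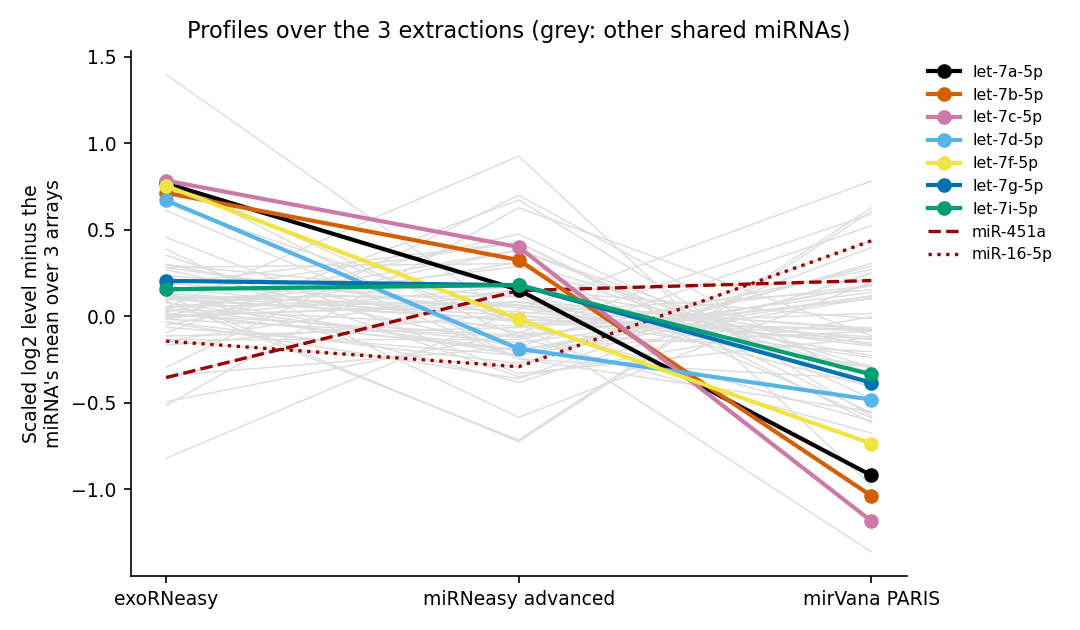
Scaled log2 level of each miRNA minus its own mean over the 3 arrays (vertical axis), with the 7 detected members as coloured lines, miR-451a and miR-16-5p as dark red lines and other miRNAs detected on all 3 arrays in grey. The lines join separate extractions and show no order in time; from exoRNeasy to mirVana PARIS, let-7c drops the most of the 7 members, by 1.97, and let-7g and let-7i the least, by 0.59 and 0.49.

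A second probe was detected on both arrays for 5 members in the exoRNeasy over mirVana PARIS pair and gave the same order. Its scaled log2 ratios were 1.84 for let-7c, 1.58 for let-7b and 1.38 for let-7a, against 0.29 for let-7g and 0.27 for let-7i. Each was lower than that of the probe used, by 0.12 to 0.31, and 3 of the 5 gaps were over 3 standard errors. In the other two pairs of arrays 4 members could be compared, and the 1 change of sign was let-7g between exoRNeasy and miRNeasy advanced, at 0.02 and -0.05. The second probe of let-7d was below detection on all arrays and that of let-7f was detected on the mirVana PARIS array alone, so the ratios of those members rest on 1 probe each.

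**Figure D4:**
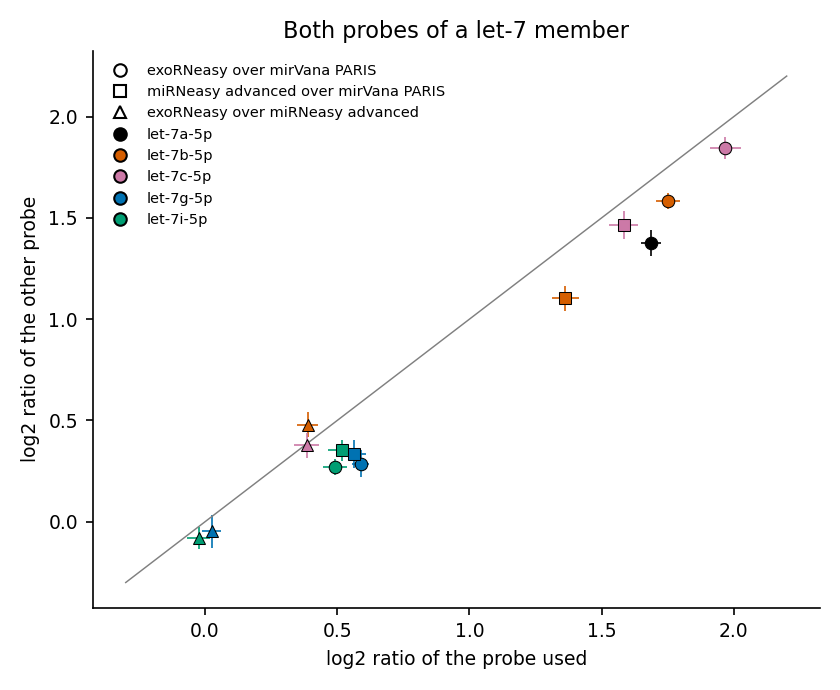
Scaled log2 ratio from the probe used (horizontal axis) against that from the other probe of the same member (vertical axis), with spot standard errors as bars, marker shape for the pair of arrays and colour for the member. The exoRNeasy over mirVana PARIS points of let-7a, let-7b and let-7c lie between 1.38 and 1.84 on the vertical axis, apart from let-7g and let-7i at 0.29 and 0.27.

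As a share of the summed signal of all detected miRNAs, the family took 3.86% with exoRNeasy, 2.83% with miRNeasy advanced and 1.63% with mirVana PARIS, with spot standard errors of 0.028, 0.030 and 0.018. The summed share of the red blood cell list ran in the opposite order: miR-451a, miR-16-5p, miR-486a-5p and miR-144-3p, 4 of 4 detected, took 38.0%, 47.6% and 52.3%. That sum was mostly miR-451a, with 6241 of 6782 signal units on the exoRNeasy array. The opposite order is partly built in, since both shares are taken of the same total. In the same order of arrays that total was 17869, 11028 and 37719, and the family's summed signal was 690, 312 and 614. Relative to the median of all miRNAs, the exoRNeasy over mirVana PARIS log2 ratios of the 4 red blood cell miRNAs were -0.89 for miR-451a, -0.91 for miR-16-5p, -0.66 for miR-486a-5p and -1.93 for miR-144-3p. In exoRNeasy over miRNeasy advanced the list was divided, with -0.63 for miR-451a and -0.98 for miR-144-3p but 0.02 for miR-16-5p and 0.12 for miR-486a-5p. The summed share of the platelet and myeloid list (miR-223-3p, miR-126a-3p and miR-142a-3p, 3 of 3 detected) had the order of the family, at 4.85%, 4.12% and 3.11%, with miR-223-3p the brightest of the 3. Its members were divided: relative to the median of all, the exoRNeasy over mirVana PARIS ratios were 0.24 for miR-223-3p, 0.54 for miR-126a-3p and -0.73 for miR-142a-3p. In exoRNeasy over miRNeasy advanced they were 0.15, -0.14 and -1.27. The liver miRNA miR-122-5p stood at 0.679%, 0.314% and 0.552%, and the muscle pair miR-1a-3p and miR-133a-3p at 1.23%, 0.975% and 1.54%. The part of blood cell miRNAs in the family's ratios was not tested.

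The opposite arms of the hairpins were mostly not detected. Of 11 let-7 and miR-98 3p arms on the array, only let-7d-3p was detected by the share of spots above background, on the exoRNeasy and mirVana PARIS arrays. The scanner software's own flag also called let-7d-3p on the miRNeasy advanced array and let-7b-3p, at a signal of 19.8, on the exoRNeasy array. The signals of let-7d-3p were 27.9, 11.9 and 23.4 on the exoRNeasy, miRNeasy advanced and mirVana PARIS arrays, with 7, 3 and 7 of 7 spots well above background. The scaled exoRNeasy over mirVana PARIS log2 ratio of let-7d-3p was 1.23 ± 0.08, beside 1.15 ± 0.06 for let-7d-5p from the same hairpin. Against the miRNeasy advanced array, the scaled exoRNeasy level of let-7d-3p was higher by at least 1.29-fold.

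Of 5 miRNAs encoded beside let-7 genes in the same primary transcripts, miR-125b-5p was detected on all 3 arrays and miR-99a-5p on the mirVana PARIS array alone, while miR-100-5p, miR-99b-5p and miR-125a-5p were not detected. The signals of miR-125b-5p, a regulator of cell proliferation and blood cell development, were 146.1, 50.7 and 120.0. Its scaled log2 ratios were 1.25 ± 0.05 for exoRNeasy over mirVana PARIS, 0.56 ± 0.05 for miRNeasy advanced over mirVana PARIS and 0.69 ± 0.05 for exoRNeasy over miRNeasy advanced. It was also the non-member whose profile was nearest to the members' median profile, at a Euclidean distance of 0.27 over 3 arrays among the 67 miRNAs detected on all 3. The next nearest were miR-328-3p at 0.32, miR-3095-3p at 0.47, miR-126a-3p at 0.47 and miR-709 at 0.54. Among the members themselves the distance was 0.19 for let-7a, 0.20 for let-7f, 0.34 for let-7b and 0.45 for let-7d. It was 0.50 for let-7c, 0.62 for let-7g and 0.69 for let-7i. Thus let-7g and let-7i lay farther from the median profile than each of these non-members.

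Other seed families were set beside let-7 as a description. In the exoRNeasy over mirVana PARIS pair, the median minus that of all miRNAs was 1.16 for let-7, -0.41 for 5 detected miR-15/16 members, -0.72 for 4 detected miR-17 seed members and 0.0090 for 4 detected miR-30 members. In the miRNeasy advanced over mirVana PARIS pair the values were 0.54, -0.43, -0.79 and, for 2 detected miR-30 members, -0.67. In the exoRNeasy over miRNeasy advanced pair they were 0.26, -0.15, 0.07 and, again for 2 miR-30 members, 0.49. The SD of the exoRNeasy over mirVana PARIS ratios among members was 0.58 for let-7, 0.31 for miR-15/16, 0.30 for the miR-17 seed and 0.48 for miR-30, against 0.88 over all 80 miRNAs. The let-7 value was 0.36 with normexp. The values of the other families and of all miRNAs are from the main setting, so the normexp value cannot be set against them.

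**Figure D5:**
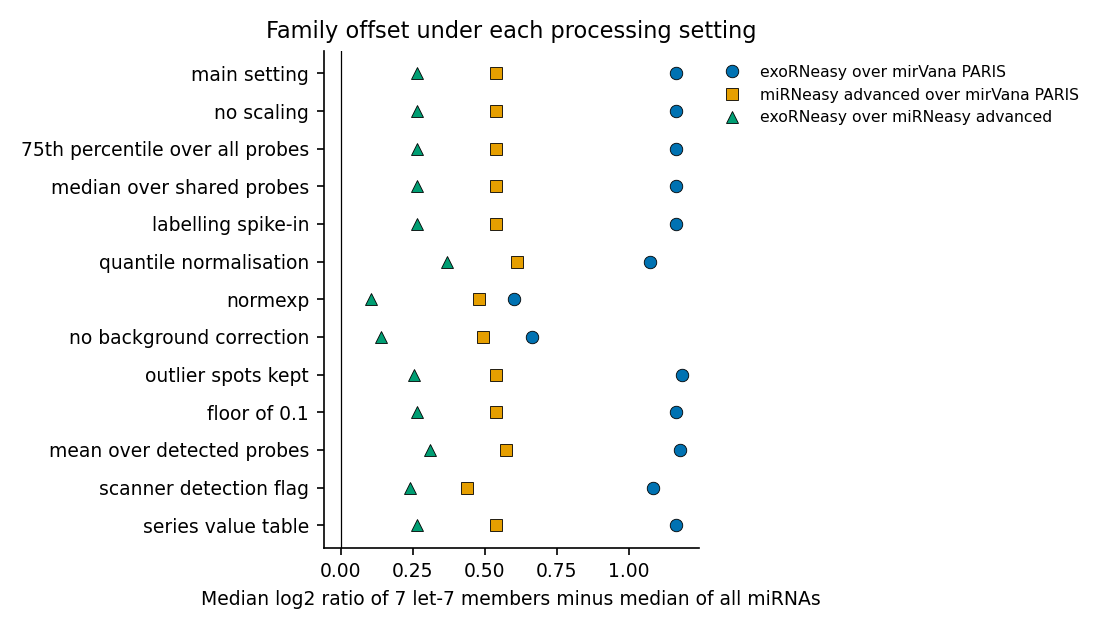
Median log2 ratio of the detected members minus that of all miRNAs detected on both arrays (horizontal axis) under each processing setting (rows), with marker shape for the pair of arrays. Every setting keeps the 3 values above 0; the exoRNeasy over mirVana PARIS value is 1.16 in the main setting and 0.60 with normexp.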

How the data were processed

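Serum miRNAs were measured on 1-colour Agilent arrays, 1 for each of 3 extraction kits. Per the file headers, the authors' deposited intensities were made with Feature Extraction 11.5.1.1 (11.5 in the submitters' processing notes), which subtracts background with spatial detrending and leaves arrays unnormalised. The deposited value table holds the same linear intensities, uncentred, matching for 58594 of 58594 features on each array within 0.5%, and was used as an alternative. Its column medians are -2.77, -1.51 and -1.44.

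Spot intensities were raised to at least 1 and log2 transformed. Spots flagged as outliers were left out, spots of a probe were averaged, and each array was scaled by subtracting the 75th percentile of the 106 probes that every array detected. A miRNA took the probe detected on most arrays, then the brightest. The named miRNAs are the 9 members, detected miRNAs with their seed, their 3p arms, 5 co-transcribed miRNAs and the 5 nearest profiles. Members and lists were chosen with earlier results of these data known. A fold of at least 2 was counted, and a bound sets the bright array's level against the higher of the dim probe's own and the lowest detected signal. The number of arrays limits the precision. The calculation was tested on simulated data. Alternatives covered scaling, background (normexp, offset 50, limma 3.58.1 in R 4.3.3), outlier spots, floor, probe, detection and value source. Python 3.11.15, numpy 2.4.6 and pandas 2.3.3 were used.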

Additional observations from a re-analysis of the deposited data

How the results depend on the processing

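The members' median stayed above the median of all miRNAs in every setting run and in all 3 pairs of arrays. Main values were 1.16, 0.54 and 0.26 for exoRNeasy over mirVana PARIS, miRNeasy advanced over mirVana PARIS and exoRNeasy over miRNeasy advanced. In that order they were 0.60, 0.48 and 0.11 with normexp, 0.66, 0.49 and 0.14 without background correction, and 1.07, 0.61 and 0.37 with quantile normalisation. Leaving out each member in turn gave 0.99 to 1.26, 0.46 to 0.72 and 0.26 to 0.38. The counts of members 2-fold apart changed with the scaling by construction. With no scaling, the percentile over all probes and the labelling spike-ins in turn, exoRNeasy over mirVana PARIS had 0, 0 and 2 members higher, miRNeasy advanced over mirVana PARIS had 0, 0 and 0 higher and 4, 4 and 3 lower, and exoRNeasy over miRNeasy advanced had 5, 2 and 5 higher. Under the same 3 scalings, all 7 miRNeasy advanced over mirVana PARIS ratios turned negative, to -0.73, -0.70 and -0.60 for let-7a, -0.44, -0.41 and -0.31 for let-7b and -0.22, -0.19 and -0.089 for let-7c, and with no scaling to -1.51 for let-7d, -1.09 for let-7f, -1.24 for let-7g and -1.29 for let-7i. For exoRNeasy over mirVana PARIS, the percentile over all probes gave -0.28 for let-7d, -0.84 for let-7g and -0.94 for let-7i. With no scaling let-7g and let-7i stood at -0.38 and -0.48, and with the spike-ins at -0.13 and -0.23. The SD among members was 0.36, 0.28 and 0.098 with normexp. Without background correction it was 0.39 for exoRNeasy over mirVana PARIS and 0.12 for exoRNeasy over miRNeasy advanced. Normexp adds 50 to every spot and uncorrected signals keep their background, and both draw unscaled log2 ratios of low signals toward 0. How much of the smaller SD comes from this was not tested. The family's share was 3.53% with exoRNeasy and 2.65% with miRNeasy advanced from the scanner's total gene signal. With every probe required above background, 4 members were detected on the miRNeasy advanced array. No paired analysis was possible because each kit has 1 array and no test was run. Signals near background limit let-7d, let-7e and miR-98.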
